A study of Mus musculus with 6 samples.

Results

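The hedgehog pathway genes described here are Shh, Ptch1, Smo, Gli1, Gli2, Gli3, Hhip, Gas1, Cdon and Foxa2, 10 of the 54532 Ensembl genes counted in each library. They were chosen by symbol, as the ligand, its receptors, its transcriptional effectors and a target, and each symbol matched 1 gene ID. RNA was sequenced from heads of mouse embryos at embryonic day 8.5, in pools of 3 heads that were collected before a change of form could be seen. The first group was 3 pools of Sf3b4 NCC mutant heads, in which Sf3b4, a gene of the splicing machinery, had been deleted in neural crest cells (NCC). The sample titles call these embryos homozygous null, while the genotype entry and the study design speak of a mutation in neural crest cells, which is the reading used here. The second group was 3 pools of wild-type heads of the same stage. The strain, the Cre driver and whether the wild-type embryos carried a Cre or a modified allele are not stated in the sources used here. Each pool averages 3 embryos, and the labels do not name the litters, so p-values rest on the variation among these 6 pools, which may be partly technical.

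Hedgehog ligands are secreted proteins that act at a distance from the cells that make them. In the early head, Sonic hedgehog comes from the notochord, the prechordal plate, the floor plate of the neural tube and the foregut endoderm. Without ligand, the receptor Patched holds back the membrane protein Smoothened. Ligand relieves this block, Smoothened signals in the primary cilium, and Gli transcription factors then turn on target genes, among them Gli1 and Ptch1 themselves. Cranial neural crest cells that build the face receive this signal and depend on it for survival and growth.

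The pools held 7420956 to 12251910 counts in the mutant group and 6930827 to 11797020 in the wild-type group, and 14008 genes were tested. The 8 head neural markers looked at were present in every pool, from Pax2 at 4.63 to 8.53 CPM to Otx2 at 118 to 133 CPM (counts as a rate per 1000000 reads, with TMM scaling). Mean levels of some of these markers differed between genotypes. En1 averaged 18 CPM in mutant and 30.6 CPM in wild-type pools, and Pax2 averaged 5 and 6.88 CPM. Hesx1 (16.5 and 10.3 CPM), Lhx2 (45 and 36.1), Rax (21 and 17.4), Egr2 (20.4 and 16.4) and Six3 (11.4 and 10.3) went the other way. Otx2 averaged 124 CPM in both. No test of these differences is given here, and their part in the values of the pathway genes was not tested. Of 6 trunk Hox genes, Hoxb9, Hoxc9 and Hoxc10 had no counts. Hoxa9, Hoxd9 and Hoxd10 had 3, 1 and 6 over all pools together. Sf3b4 was read at 56.1, 64.2 and 60.9 CPM in the mutant pools and at 77.7, 72.8 and 63.9 CPM in the wild-type pools, a log2 fold change of -0.24 that did not pass the test (edgeR adjusted p = 0.128). It passed without wild-type pool 3 (-0.32, edgeR adjusted p = 0.0288) and with the offset for exon length and GC content (-0.26, edgeR adjusted p = 0.0461). Reads on 4 Y-linked genes numbered 1 in mutant pool 3 and 1 in wild-type pool 1, and 344 to 664 elsewhere.

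All 10 pathway genes were expressed in the heads of both genotypes, all 10 were tested, and none passed the threshold (edgeR quasi-likelihood test, Benjamini-Hochberg adjusted p under 0.05). Over all tested genes 6.52% passed, 2.65% higher and 3.88% lower in the mutant pools. Without adjustment, p was under 0.05 for 2 of the 10, Gli1 and Gli2, both lower in the mutant pools, against 23.2% of all tested genes. DESeq2 also called none after adjustment and gave the same 2 genes before it, and limma-voom called none and gave 3, Shh being the third. Of the 10 log2 fold changes 5 were positive and 5 negative, from -0.37 for Gli1 to 0.32 for Shh, with a median of -0.0056 against 0.00229 over all genes tested. With the offset for length and GC content 7 were positive and 3 negative, with a median of 0.0688 against 0.0154 over all genes. Only Shh had mutant pools that lay entirely on one side of the wild-type pools, a separation that 28.3% of all tested genes showed (13.8% with the mutant pools above and 14.4% with them below).

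**Figure D1:**
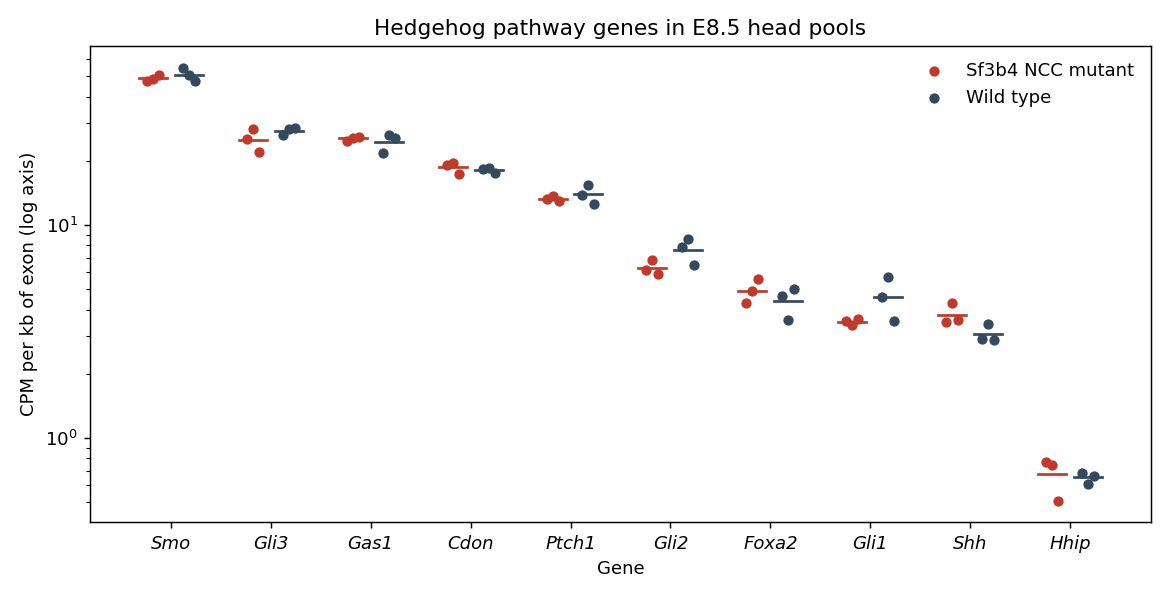
Level of each hedgehog pathway gene in every pool, in CPM per kilobase of exon on a log axis, with mutant pools (red) to the left of wild-type pools (dark) and a bar at each mean. Smo stands highest and Hhip lowest in both genotypes, and the red and dark points separate completely for Shh alone.

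Levels of different genes were compared as CPM per kilobase of exon. Smo, the signal transducer, was the most abundant of the 10, at 48.8 ± 1.53 CPM per kilobase in mutant pools and 50.8 ± 3.78 in wild-type pools (SD, n = 3 each), above 93.3% of the tested genes. Gas1 (25.4 in mutant and 24.5 in wild-type pools) and Gli3 (25.1 and 27.6) followed, and their pools overlapped in both genotypes, so their order was not resolved. Next came Cdon (18.6 and 18.1), Ptch1 (13.3 and 13.9) and Gli2 (6.28 and 7.63), each separated from its neighbours in every pool. Foxa2 (4.91 and 4.39) stood just above Shh (3.79 and 3.07), the lowest mutant Foxa2 pool and the highest mutant Shh pool both being 4.29 as rounded. Gli1 (3.51 and 4.61) overlapped Shh in the mutant and in the wild-type pools. Hhip was the lowest, at 0.673 ± 0.144 CPM per kilobase in mutant pools and 0.652 ± 0.0400 in wild-type pools, and only 11.6% of tested genes were lower.

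Shh (ENSMUSG00000002633, mm10 chromosome 5, 28456815 to 28467256, minus strand) encodes Sonic hedgehog. It was read at 10.01, 12.2 and 10.2 CPM in the mutant pools and at 8.25, 9.75 and 8.18 CPM in the wild-type pools. Every mutant pool was above every wild-type pool, by a narrow margin between mutant pool 1 and wild-type pool 2. Shh averaged 10.8 ± 1.23 CPM in mutant pools and 8.73 ± 0.886 CPM in wild-type pools (SD, n = 3 each). The log2 fold change of 0.32 (SE 0.153) did not pass (edgeR adjusted p = 0.224). Its 95% interval ran from 0.996-fold to 1.56-fold of the wild-type level, on 313 mutant and 253 wild-type counts. With 1 pool left out the log2 fold change lay between 0.22 and 0.40. Exons of Shh share 28.3% of their bases with opposite-strand transcripts. Those partners, 9530036O11Rik and Gm26894, had at most 5 and 6 counts in any pool, against 69 to 122 for Shh.

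The other ligand genes were close to silent. Ihh (Indian hedgehog, a ligand of the skeleton and gut) had 10 counts in the mutant pools together and 12 in the wild-type pools together. Dhh (Desert hedgehog, made by Schwann cells and Sertoli cells) had 19 in the mutant pools and 2 in the wild-type pools, a ratio of 9.63 with a 95% counting interval of 2.32 to 85.3. Both were below the filter on low counts. With no filter, where 4.86% of all tested genes passed, the test called Dhh higher (edgeR adjusted p = 0.0215). The wild-type side rests on 0, 2 and 0 counts in the 3 pools, and the interval covers counting error only. Exons of Dhh share 25.2% of their bases with the opposite-strand genes Gm49442 and Rhebl1. The part of reads from those genes in the Dhh counts was not tested.

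Among the genes of reception, Ptch1 (chromosome 13, 63508328 to 63573598, minus strand) encodes the Patched receptor, which is also induced by the pathway and limits it. Its levels were 187, 194 and 183 CPM in the mutant pools and 197, 218 and 177 CPM in the wild-type pools. The mutant pools lay within the range of the wild-type pools. The log2 fold change was -0.07 (SE 0.0809, edgeR adjusted p = 0.671), and the 95% interval ran from 0.849-fold to 1.08-fold. The sign of that small difference turned without wild-type pool 2 (0.02) and once trends with exon length and GC content were removed (0.10).

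Smo (chromosome 6, 29735503 to 29761365, plus strand) encodes Smoothened. Its levels were 267, 272 and 284 CPM in the mutant pools and 308, 283 and 265 CPM in the wild-type pools, again overlapping. With 7942 mutant and 8405 wild-type counts its 95% interval was narrow, 0.861-fold to 1.07-fold (log2 fold change -0.06, edgeR adjusted p = 0.7).

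The co-receptor genes Gas1 and Cdon, whose membrane proteins bind the ligand and assist Patched, overlapped between genotypes too. Gas1 (chromosome 13, 60174405 to 60177365, minus strand) was read at 73.4, 75.8 and 76.8 CPM in the mutant pools and at 64.0, 78.1 and 75.7 CPM in the wild-type pools. Its 95% interval was 0.914-fold to 1.18-fold (edgeR adjusted p = 0.75), and its partner on the opposite strand, Gm48488, held at most 7 counts in a pool. Cdon (chromosome 9, 35421128 to 35507652, plus strand) had levels of 148, 149.8 and 134 CPM in the mutant pools and 141, 143 and 135 CPM in the wild-type pools. Its 95% interval was 0.926-fold to 1.15-fold (edgeR adjusted p = 0.757). Boc, the co-receptor gene closest to Cdon, was lower in each mutant pool (37.4, 37.7 and 39.5 CPM) than in any wild-type pool (47.1, 41.4 and 40.6 CPM) but did not pass (log2 fold change -0.17, edgeR adjusted p = 0.275).

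Hhip (chromosome 8, 79965851 to 80058006, minus strand) encodes a decoy that binds hedgehog ligands and is induced by the pathway. Its levels were 6.98, 6.73 and 4.604 CPM in the mutant pools and 6.21, 5.51 and 6.03 CPM in the wild-type pools. Mutant pool 3 was below all wild-type pools and the other 2 mutant pools were above them. On 34 to 85 counts per pool the 95% interval was the widest of the 10 genes, 0.785-fold to 1.39-fold (edgeR adjusted p = 0.884).

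**Figure D2:**
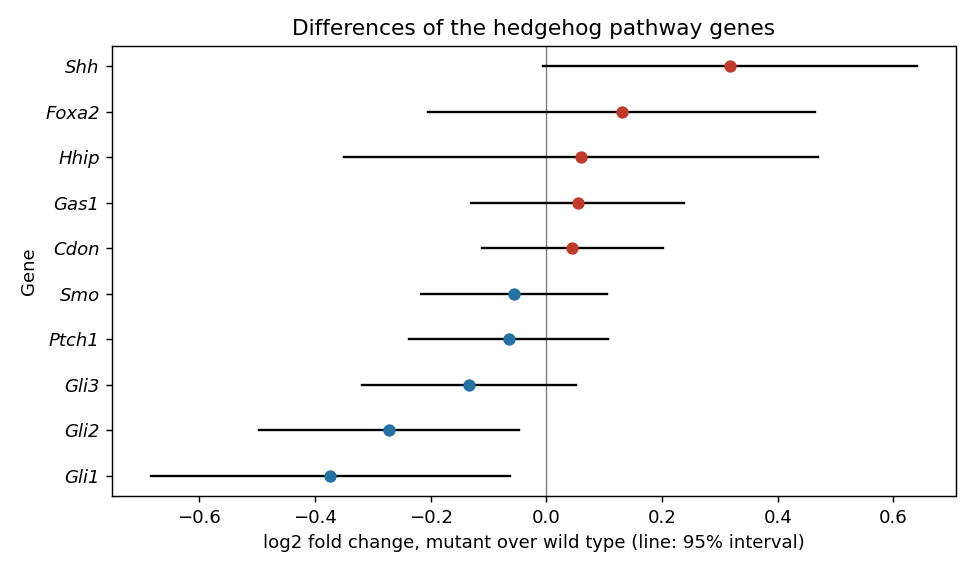
Log2 fold change of each gene, mutant over wild type, with its 95% interval from the fit across all genes. The intervals of Gli1 and Gli2 lie below 0 and that of Shh touches it, before adjustment over the 14008 genes tested.

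RefSeq windows of 300 bases, from 250 before a gene's start to 50 after it, were matched for 8 of the 10 genes (10 windows, build GRCm38.p6). The Gli consensus GACCACCCA, searched on both strands (as TGGGTGGTC on the other), was in none of them, and in 0.253% of all 32851 windows. The GC box GGGCGG, or CCGCCC on the other strand, was in 8 of the 10 windows and in 35.7% of all windows. By gene it was in 6 of the 8 matched, as Foxa2 had several windows. The windows of Ptch1, the receptor gene that the pathway induces, and of Gli2, the effector with the larger difference among those matched, are shown with the GC box in capitals. The Ptch1 window is chr13:63565686-63565985 (minus strand), within the gene as GENCODE draws it, and the Gli2 window is chr1:119053570-119053869 (minus strand).
Ptch1: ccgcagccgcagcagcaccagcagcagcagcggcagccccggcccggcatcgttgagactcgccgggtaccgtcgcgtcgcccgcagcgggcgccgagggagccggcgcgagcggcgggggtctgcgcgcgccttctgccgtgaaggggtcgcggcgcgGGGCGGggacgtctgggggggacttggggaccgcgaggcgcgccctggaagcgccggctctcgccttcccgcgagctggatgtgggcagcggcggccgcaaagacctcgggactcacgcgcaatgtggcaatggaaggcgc
Gli2: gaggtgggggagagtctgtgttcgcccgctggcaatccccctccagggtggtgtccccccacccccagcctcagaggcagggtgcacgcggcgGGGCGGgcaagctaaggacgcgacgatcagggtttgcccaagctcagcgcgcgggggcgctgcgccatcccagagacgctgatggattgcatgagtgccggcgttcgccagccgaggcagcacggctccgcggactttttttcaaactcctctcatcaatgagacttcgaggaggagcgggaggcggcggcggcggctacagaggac
The absence of a match says only that these letters are not in these windows, and binding was not measured.

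Gli1, Gli2 and Gli3 encode the transcription factors at the end of the pathway, and all 3 had negative fold changes. Gli1 (ENSMUSG00000025407, chromosome 10, 127329882 to 127341974, minus strand) is an activator whose own transcript depends on hedgehog signalling, and it is the usual readout of the pathway. It was read at 17.6, 16.9 and 18.01 CPM in the mutant pools and at 22.9, 28.4 and 17.7 CPM in the wild-type pools. The mutant pools agreed closely, while the wild-type pools were spread, and wild-type pool 3 lay among the mutant values. Gli1 averaged 17.5 ± 0.544 CPM in mutant pools and 23.0 ± 5.33 CPM in wild-type pools (SD, n = 3 each). Its log2 fold change was -0.37 (SE 0.146), with a 95% interval of 0.622-fold to 0.958-fold, and did not pass (edgeR adjusted p = 0.14). The result turned on the wild-type pools. Without wild-type pool 3 the log2 fold change was -0.54 and passed (edgeR adjusted p = 0.014), and without wild-type pool 2 it was -0.20 (edgeR adjusted p = 0.443).

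Gli2 (ENSMUSG00000048402, chromosome 1, 118834132 to 119053619, minus strand) encodes the main activator that carries the first response to the signal. It was read at 42.2, 47.0 and 40.2 CPM in the mutant pools and at 53.8, 58.8 and 44.7 CPM in the wild-type pools. Mutant pool 2 was above wild-type pool 3, and the groups otherwise separated. Gli2 averaged 43.1 ± 3.51 CPM in mutant pools and 52.4 ± 7.14 CPM in wild-type pools (SD, n = 3 each). Its log2 fold change was -0.27 (SE 0.106), with a 95% interval of 0.709-fold to 0.968-fold, and did not pass (edgeR adjusted p = 0.137). As for Gli1, it passed without wild-type pool 3 (-0.38, edgeR adjusted p = 0.0207) and with no other pool left out. The correction for length and GC content brought it to -0.16 (edgeR adjusted p = 0.275). Without wild-type pool 3, 12.7% of all tested genes passed, against 6.52% with all pools.

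Gli3 (ENSMUSG00000021318, chromosome 13, 15463235 to 15730026, plus strand) encodes the factor that acts chiefly as a repressor when the signal is absent. Its transcript stood at 243, 271 and 210.2 CPM in the mutant pools and at 253, 269 and 272 CPM in the wild-type pools. Here the mutant pools were the more spread, with mutant pool 2 inside the wild-type range and mutant pool 3 lowest. The 95% interval was 0.802-fold to 1.04-fold (log2 fold change -0.13, edgeR adjusted p = 0.379).

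**Figure D3:**
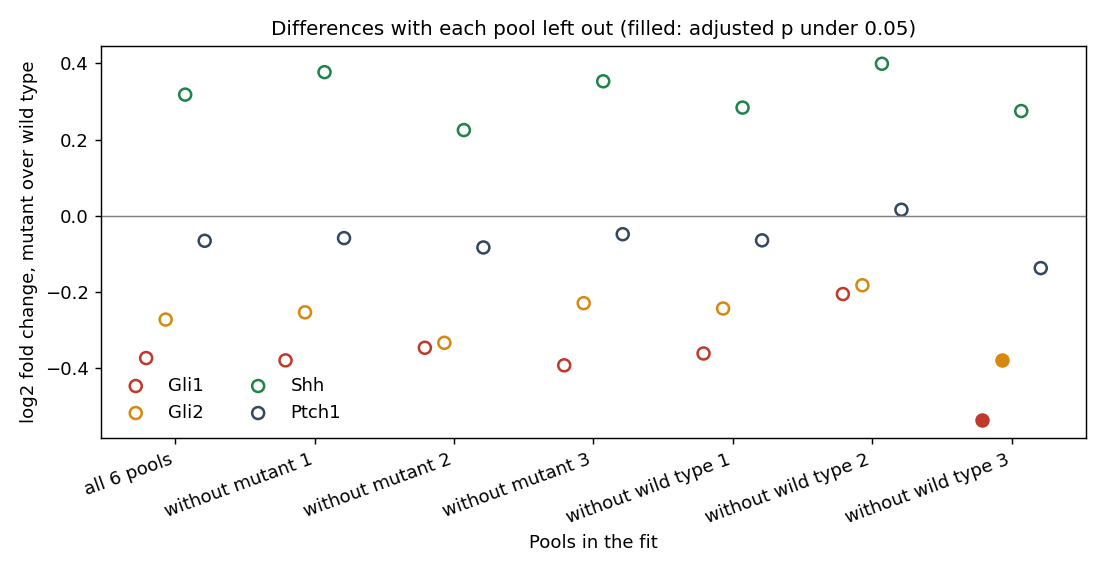
Log2 fold change of Gli1, Gli2, Shh and Ptch1, mutant over wild type, with all 6 pools and with each pool left out in turn; filled points have an adjusted p under 0.05. Gli1 and Gli2 pass only without wild-type pool 3, and Ptch1 crosses 0 without wild-type pool 2.

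Foxa2 (ENSMUSG00000037025, chromosome 2, 148042877 to 148046969, minus strand) encodes a transcription factor of the notochord, floor plate and endoderm that lies both downstream and upstream of Shh. Its transcript stood at 10.2, 11.6 and 13.1 CPM in the mutant pools and at 10.9, 8.48 and 11.8 CPM in the wild-type pools, which overlapped. The log2 fold change was 0.13 (SE 0.158, edgeR adjusted p = 0.664), with a 95% interval of 0.868-fold to 1.38-fold.

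The rest of the pathway was read from 5 lists of other genes, with 119 symbols, of which 117 matched a gene ID and 109 were tested. Of these 1 rose, 6 fell and 102 did not pass, so 6.42% were called against 6.52% of all tested genes. Over all tested genes 2.65% rose and 3.88% fell, the shares to set beside the list counts below. The median log2 fold change over the 109 was -0.0794.

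In the list of ligands, release and reception, 1 of 16 tested genes rose and none fell, with a median of -0.0947 that became -0.00821 with the offset for length and GC content (8 positive, 8 negative). In 4 of the 16 (25%, against 14.4% of all tested genes) all mutant pools were below all wild-type pools. In 2 (12.5%, against 13.8%) they were above. Gpc3, whose heparan sulphate proteoglycan binds hedgehog at the cell surface and can compete with Patched, rose to 333, 334 and 332 CPM in the mutant pools, against 282, 259 and 275 CPM in the wild-type pools (log2 fold change 0.29, SE 0.0702, edgeR adjusted p = 0.021). All mutant pools were above all wild-type pools, and the call was lost when wild-type pool 2 or any 1 of the mutant pools was left out. Scube2 and Scube1, which encode secreted carriers that help release the ligand and are named here after their values were seen, had log2 fold changes of -0.46 and -0.27 that did not pass (edgeR adjusted p = 0.0851 and 0.0902). With no filter on low counts both passed as lower (edgeR adjusted p = 0.0229 and 0.0407), where 4.86% of all tested genes passed.

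In the list of transduction and Gli regulation, 2 of 25 fell and none rose, with a median of -0.0892. The median was -0.0143 with the offset, when 2 genes also passed as higher, and -0.0265 without wild-type pool 1 (12 positive, 13 negative). In 8 of the 25 (32%, against 14.4% of all tested genes) all mutant pools were below all wild-type pools. In 2 (8%, against 13.8%) they were above. Sufu encodes the protein that binds Gli factors in the cytoplasm and restrains them. It fell to 50.1, 55.8 and 52.9 CPM in the mutant pools, against 74.0, 77.1 and 63.8 CPM in the wild-type pools, with no overlap. The log2 fold change was -0.43 (SE 0.091, edgeR adjusted p = 0.0107). Its call was lost without mutant pool 1 (edgeR adjusted p = 0.0948), without wild-type pool 2 (0.0631) and among the pools carrying Y-linked reads (0.0629), while the log2 fold change stayed between -0.51 and -0.32 in all alternatives. Spop, an adaptor of a ubiquitin ligase that marks Gli2 and Gli3 for degradation, fell by 0.35 on the log2 scale (edgeR adjusted p = 0.0366). That call was lost with DESeq2 (0.0785), with the replicate number as a block (0.0611), without wild-type pool 2, without any 1 mutant pool and among the Y-bearing pools. Kif7, a ciliary kinesin that regulates Gli processing, and Gpr161, a ciliary receptor that favours Gli repressors, had log2 fold changes of -0.09 and -0.13 that did not pass (edgeR adjusted p = 0.631 and 0.377); they were named after their values were seen.

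In the list of the primary cilium, 2 of 33 genes fell and none rose. The fold change was negative in 27 of 33 genes (81.8%), against 49.7% of all genes tested, and the median was -0.152. It stayed between -0.186 and -0.117 in all alternatives, the correction for length and GC content included. The groups did not overlap in 9 of the 33 (27.3%), close to the 28.3% of all tested genes. In 8 of these (24.2% of the list, against 14.4% of all genes) the mutant pools were below and in 1 (3.03%, against 13.8%) above. Dync2h1, the heavy chain of the motor that returns cargo from the tip of the cilium, fell to 90.4, 103 and 88.2 CPM in the mutant pools, against 127, 135 and 126 CPM in the wild-type pools (log2 fold change -0.46, SE 0.078, edgeR adjusted p = 0.00256). Its call held in all alternatives. Ift122, a subunit of the transport complex that works with this motor, fell by 0.51 on the log2 scale (edgeR adjusted p = 0.0118), a call lost without mutant pool 1 (0.0743) or mutant pool 2 (0.0666).

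In the list of response genes, 2 of 21 fell and none rose, with a median of -0.0567. The median turned positive without mutant pool 3 (0.0398), wild-type pool 1 (0.062) or wild-type pool 2 (0.0093), and among the Y-bearing pools (0.0508). In 5 of the 21 (23.8%, against 14.4% of all tested genes) all mutant pools were below all wild-type pools. Olig2, described below, is 1 of these 5 and was tested only because of its wild-type counts, which favours that order. In 3 (14.3%, against 13.8%) they were above. Ccnd2, a cyclin gene that drives entry into the cell cycle, fell by 0.37 (edgeR adjusted p = 0.0132), a call lost without mutant pool 1 or 3 or wild-type pool 2. Tbx3, a T-box repressor gene, fell by 0.61 (edgeR adjusted p = 0.0316), a call lost with DESeq2, without any 1 pool other than wild-type pool 3, and among the Y-bearing pools. The ventral neural tube genes Nkx2-1 (1.43 ± 0.435 CPM in mutant and 1.52 ± 0.382 in wild-type pools) and Nkx2-2 (1.76 ± 0.635 and 1.52 ± 0.207; SD, n = 3 each) overlapped and did not pass (edgeR adjusted p = 0.943 and 0.792). Both rested on 7 to 22 counts per pool. Nkx6-1, Foxa1, Nkx2-9 and Nkx6-2 of this list, named after their values were seen, had more counts in every pool. Nkx6-1 (8.16 CPM in mutant and 10.19 CPM in wild-type pools) and Foxa1 (3.42 and 4.75 CPM) were lower in the mutant pools without overlap. Nkx2-9 (13.5 and 10.99 CPM) was higher without overlap, and Nkx6-2 (6.54 and 5.99 CPM) overlapped. None of them passed (edgeR adjusted p = 0.199, 0.19, 0.216 and 0.732). Olig2 is a gene of motor neuron progenitors, also named after its values were seen. It had 15 counts in the mutant pools together and 43 in the wild-type pools together. It passed the filter on low counts through the wild-type pools alone, so its difference is given as counts only. Of 14 tested genes of the dorsal neural tube, a territory that hedgehog restrains, none passed and 7 were positive, with a median of -0.0251. The 2 with the smallest p were Bmp7, a ligand gene (0.25, edgeR adjusted p = 0.156), and Zic1, a zinc finger gene (-0.24, edgeR adjusted p = 0.172). In this list p was under 0.05 before adjustment for only those 2 of the 14, against 23.2% of all tested genes. The groups did not overlap in 2 of the 14 (14.3%, against 28.3% of all tested genes). DESeq2 and limma-voom also called none. Bmp7 passed without wild-type pool 1 (0.35, edgeR adjusted p = 0.0413).

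**Figure D4:**
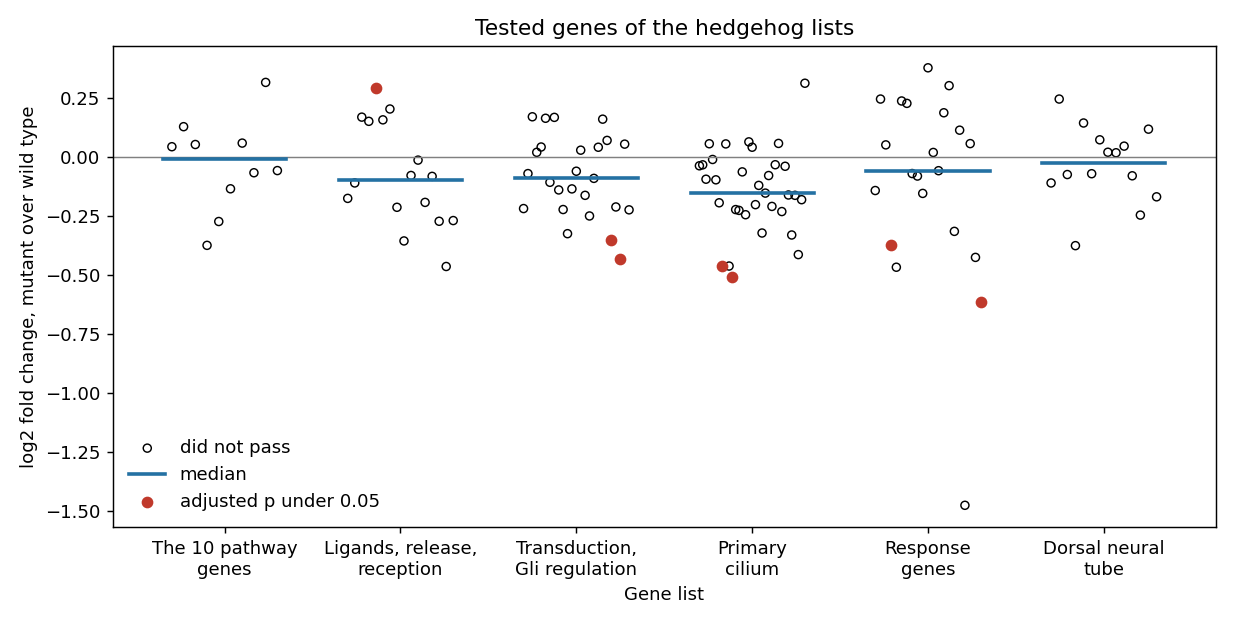
Log2 fold change, mutant over wild type, of each tested gene in the 10 pathway genes and 5 further lists, with blue bars at the medians and filled points at an adjusted p under 0.05. No filled point appears among the 10 pathway genes or the dorsal genes, and the points of the primary cilium lie mostly below 0. The lowest point of the response genes is Olig2, which passed the filter on low counts through the wild-type pools alone.

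In pooled heads, fewer cells of a type and less RNA per cell cannot be told apart, which bears on every value above. Markers of neural crest cells, which receive the hedgehog signal, moved with genotype. Their summed level over 13 genes ran from 355 to 401 CPM in the mutant pools and from 492 to 537 CPM in the wild-type pools. Of the 13, 6 fell, against 3.88% of all tested genes. The count was 3 without mutant pool 1, where 1.61% of all tested genes passed in either direction. It was 8 with a covariate for Y-linked reads, where 11.8% passed. Among the 6 was Sox10, at 21.6 ± 3.33 CPM in mutant and 47.8 ± 5.92 CPM in wild-type pools (SD, n = 3 each, edgeR adjusted p = 5.68e-05). The part of these marker differences in the values of Gli1 and Gli2 was not tested. Notochord and floor plate markers, which mark the sources of Shh and include Shh and Foxa2 themselves, summed to 432 to 451 CPM in mutant pools and to 468 to 549 CPM in wild-type pools. The difference in the sums lay mainly in Col2a1 (153 CPM in mutant and 186 CPM in wild-type pools, edgeR adjusted p = 0.0888), a cartilage collagen gene, with Spon1 and Sox9. Of 14 tested genes 7 were positive, Shh, Foxa2 and T among them, and 7 negative, with a median of -0.0355. In that list 2 of 14 fell, against 3.88% of all tested genes. They were Spon1 (-0.33, edgeR adjusted p = 0.0188), the gene of a floor plate matrix protein, and Sox9 (-0.37, edgeR adjusted p = 0.0359), which neural crest also expresses. The call of Spon1 was lost when wild-type pool 2 or any 1 of the mutant pools was left out, among the Y-bearing pools and after the correction for length and GC content. That of Sox9 was lost with DESeq2 (0.0597), without mutant pool 1, mutant pool 3 or wild-type pool 2 and among the Y-bearing pools. T (Brachyury), a defining notochord gene, averaged 7.06 CPM in mutant and 5.46 CPM in wild-type pools and did not pass (edgeR adjusted p = 0.343), and Noto had 7 and 5 counts. Foregut endoderm markers summed to 198 to 204 CPM in mutant pools and to 145 to 177 CPM in wild-type pools. Most of that sum was Cldn6 (96.2 CPM in mutant and 66.9 CPM in wild-type pools), also a surface ectoderm gene, and Epcam (70.3 and 57.0 CPM), a general epithelial gene. The other 11 markers, set apart after the values were seen, summed to 33.9 to 36.6 CPM in mutant pools and to 37.4 to 45.6 CPM in wild-type pools, the other way. The largest difference among these was that of Trh (13.4 CPM in mutant and 20.6 CPM in wild-type pools). Foxa1 was also lower, without overlap (3.42 and 4.75 CPM), while Sox17 was higher, with overlap (6.85 and 5.43 CPM). Of the 9 tested genes of the whole list 5 were positive and 4 negative. Cldn6 rose by 0.52 on the log2 scale (edgeR adjusted p = 0.00292), in all alternatives. Trh fell by 0.64 (edgeR adjusted p = 0.015), a call lost without mutant pool 1 (0.105) or mutant pool 2 (0.0872). Epcam did not pass (0.30, edgeR adjusted p = 0.0646).

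Heart markers summed to 49.1 to 59.5 CPM in mutant and 33.5 to 105 CPM in wild-type pools, and erythroid markers to 74.7 to 166 and 99.99 to 252 CPM. With all pools no gene of either list was called (edgeR, DESeq2 and limma-voom) or, by edgeR, at an unadjusted p under 0.05. Wild-type pool 3, on which the calls of Gli1 and Gli2 turned, had the lowest heart and the highest erythroid sum of the wild-type pools. Without it the median of the heart list was -0.872 against -0.434 with all pools. In that fit 4 of 8 tested heart markers passed as lower, where 12.7% of all tested genes passed in either direction. Myh7, a cardiac myosin gene, was 1 of these (-0.91, edgeR adjusted p = 0.00179) and also passed with the replicate block (0.0217). Hbb-y, an embryonic globin gene, passed as lower without wild-type pool 1 (-1.36, edgeR adjusted p = 0.000777) and among the Y-bearing pools (-1.51, edgeR adjusted p = 0.000483). The part of heart and blood content in the values of Gli1 and Gli2 was not tested.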

How the data were processed

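Per the labels' protocols, libraries came from total RNA (Qiagen micro kit) and were prepared with Illumina TruSeq Standard Total RNA reagents. Raw read counts per Ensembl gene were deposited for each pool, without normalization. Per the submitters' processing notes the build was mm10. Aligner, counter and strand setting are not stated in the sources used here, so reads of overlapping genes on opposite strands may not be separated. Of 54532 IDs, 54495 matched GENCODE M21 (GRCm38), which gave symbols, positions and exon lengths.

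Genes were kept by filterByExpr and scaled by TMM factors. Mutant and wild-type pools were compared with edgeR's quasi-likelihood test (robust, two-sided, Benjamini-Hochberg over 14008 genes, threshold 0.05). SEs are fold changes (log2) over the square root of F, and 95% intervals use the t distribution with the fit's degrees of freedom. No pools of a group matched within sampling noise (chi-square over its degrees of freedom 3.01 to 10.3). Ratios of summed counts carry exact intervals for counting error only. The edgeR step was tested on simulated data. The alternatives were DESeq2, limma-voom, other factors and filters, a non-robust fit, the replicate block, each pool left out, the pools with Y-linked reads (more than 5 reads in 1000000), those reads as a covariate, an offset for length and GC content, and a threshold of 0.1. Tools were R 4.3.3 with DESeq2 1.42.0, edgeR 4.0.16 and limma 3.58.1, and Python 3.11.15 with matplotlib 3.10.9.

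The members, lists and tests were chosen with earlier results of these data known. The named genes are the 10 members, Sf3b4, Sufu, Boc, Nkx2-1 and Nkx2-2, and from each list up to 6 that passed (lowest p first), or the 2 of lowest p where none did; 1 further gene that the rule names is not reported here but stays in the counts, and not all others are described. Of 119 other pathway symbols, 117 matched an ID (Adrbk1, an older symbol of Grk2, and Talpid3 did not), and head and trunk markers were added after the counts were seen.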

Additional observations from a re-analysis of the deposited data

How the results depend on the processing

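The count of the 10 pathway genes called was 0 in 18 of the 19 alternatives and 0 to 2 with a pool left out, the 2 being Gli1 and Gli2 without wild-type pool 3, where 12.7% of all tested genes passed. The fold changes of Shh, Gli1, Gli2, Gli3, Cdon and Foxa2 kept their sign in all 18 alternatives that refit them. Signs turned with a pool left out, over log2 ranges of -0.137 to 0.0161 for Ptch1, -0.106 to 0.00362 for Smo, -0.0493 to 0.207 for Hhip, -0.0286 to 0.113 for Gas1, -0.226 to 0.183 for Nkx2-1 and -0.0779 to 0.496 for Nkx2-2. The pools behind the turns were wild-type pool 2 for Ptch1, wild-type pool 1 for Smo, Gas1 and Nkx2-1, and mutant pools 1, 2 and 3 for Hhip, Nkx2-2 and, again, Nkx2-1. With the offset for length and GC content, signs turned for Ptch1 (0.101) and Smo (0.027), and among the Y-bearing pools for Gas1 (-0.0458) and Nkx2-1 (0.362). None of these passed in any setting, and the cause was not tested.

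The 7 other pathway genes called became 12 with no filter on low counts, 12 with Y-linked reads as a covariate, 12 with the offset and 13 at a threshold of 0.1. With a pool left out the count was 1 to 12, lowest without mutant pool 1 and highest without wild-type pool 3, and it was 3 without mutant pool 2, mutant pool 3 or wild-type pool 2. Over all genes the count of 914 (371 higher, 543 lower) became 535 among the Y-bearing pools, 1658 with Y-linked reads as a covariate and 1550 at a threshold of 0.1. With a pool left out it was 230 to 1810, the extremes falling to the same pools. With the offset 642 were higher and 526 lower. A filter of 1 CPM in 3 pools kept as many genes as the main one. The replicate numbers did not pair the pools (correlations of same-numbered deviations -0.165, 0.0466 and -0.0637). With the replicate block 694 genes, none of the 10 and 6 of the other pathway genes were called.

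Depth limits Hhip, Shh, Foxa2 and Gli1 most, with 34 to 247 counts per pool.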
